A study of Homo sapiens with 4 samples.

Results

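The insulin-like growth factor (IGF) system was examined through 10 genes: the binding proteins IGFBP2, IGFBP3, IGFBP4, IGFBP5, IGFBP6 and IGFBP7, the receptors IGF1R, IGF2R and INSR, and the adaptor IRS1. They were read by the probe sets whose platform annotation gave exactly 1 gene symbol equal to one of these names. This gave 30 probe sets of the 54613 that were not controls, for 10 of 19775 genes. The genes were chosen with the difference between these same arrays known, so their values are a description and carry no p-value. The cells were CaSki, a human papillomavirus-positive cervical carcinoma line, carrying lentivirus that expressed ZNF750 or, as control, GFP. ZNF750 is a nuclear protein that promotes differentiation of squamous epithelia. Each group had 2 arrays (Affymetrix HG-U133 Plus 2.0) of total RNA, called biological duplicates in the design text, and how the duplicate cultures were set up is not stated. Both groups shared 1 line and a medium whose serum content the labels give as 0%. The promoter of the vector and whether cells were pooled or cloned are not given in the sources used here.

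IGF1 and IGF2 are secreted growth factors that act through IGF1R, a receptor tyrosine kinase close in structure to the insulin receptor INSR. The binding proteins hold IGFs outside the cell, where they can withhold them from the receptor or store them near it, and proteases release the IGFs by cutting the binding proteins. IGF2R binds IGF2 for degradation and carries enzymes tagged with mannose 6-phosphate to lysosomes, and IRS1 docks on the activated receptors and passes the signal to phosphoinositide 3-kinase.

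The 250 bases before the annotated start of the 3 members with the widest differences are shown here so that the genes behind the measurements can be read. They are RefSeq sequences of GRCh38.p14, printed 5′ to 3′ on the strand of the gene. IGFBP5 lies on the minus strand at chr2:216695550-216695799, IGFBP4 on the plus strand at chr17:40443200-40443449 and INSR on the minus strand at chr19:7294415-7294664. Capitals mark matches to TATAAA, to TATTTAA or to CCNNAGGC, the last a motif reported for ZNF750.
IGFBP5: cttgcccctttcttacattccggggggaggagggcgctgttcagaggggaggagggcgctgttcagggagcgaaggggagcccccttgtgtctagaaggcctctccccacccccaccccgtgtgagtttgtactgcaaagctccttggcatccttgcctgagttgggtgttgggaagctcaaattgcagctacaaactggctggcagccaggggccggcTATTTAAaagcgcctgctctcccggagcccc
IGFBP4: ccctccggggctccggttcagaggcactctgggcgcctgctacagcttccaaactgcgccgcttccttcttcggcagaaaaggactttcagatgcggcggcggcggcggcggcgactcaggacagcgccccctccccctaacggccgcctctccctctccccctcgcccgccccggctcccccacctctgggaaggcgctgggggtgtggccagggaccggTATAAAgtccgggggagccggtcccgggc
INSR: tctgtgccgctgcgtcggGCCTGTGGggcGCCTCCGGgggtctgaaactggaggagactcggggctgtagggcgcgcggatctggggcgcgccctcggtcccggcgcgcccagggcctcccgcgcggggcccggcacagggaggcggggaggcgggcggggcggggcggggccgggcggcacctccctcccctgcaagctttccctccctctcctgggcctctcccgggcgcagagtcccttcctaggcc

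Matches were sought on both strands, and the motifs were chosen after the sequences had been read. IGFBP5 held TATTTAA at positions -31 to -25 from the start, a word found in 4.17% of 35116 windows of the same length over all genes. IGFBP4 held TATAAA at positions -29 to -24, found in 10.7% of windows. INSR held CCNNAGGC on the opposite strand at positions -232 to -225 and -221 to -214, and 23.5% of windows held this motif. Of the 10 genes, 9 had a window, and IGFBP7 was not among them. The GC box GGGCGG was in 42.6% of all windows, at 1 position in IGFBP4 and at 4 in INSR. In INSR those at -97 to -92, -92 to -87 and -87 to -82 shared a base with a neighbour, and the one at -77 to -72 did not. No marked match overlapped a match of another motif. A match describes these letters and is no evidence of binding. IGFBP5 and IGFBP2 are neighbouring genes on chromosome 2, and IGFBP3 neighbours IGFBP1 on chromosome 7.

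Values are log2 array signals as deposited, made with RMA, and differences are ZNF750 minus GFP on that scale, given with limma's standard error (SE, n = 2 arrays per group). A probe set was called higher or lower where limma's adjusted p over all 54613 probe sets was under 0.05. The single probe set for ZNF750 itself (219995_s_at) read 2.23 and 2.29 in the ZNF750-labelled arrays, against 2.13 and 2.37 in the GFP arrays. Where its probes lie was not used here, and an introduced coding sequence need not contain them, so it leaves the labels unchecked. Array medians lay between 5.45 and 5.51, and the quantile normalization in RMA brings them together. The bioB control signal was 9.10 and 9.28 in the ZNF750-labelled arrays, against 8.75 and 8.83 in the GFP arrays. The ACTB control signal at the 3′ end minus that at the 5′ end, which grows as RNA breaks down, was 3.76 and 3.35 in the ZNF750-labelled arrays, against 3.03 and 2.81 in the GFP arrays. For GAPDH this gap was 0.85 and 0.80 with ZNF750, against 0.63 and 0.61 with GFP. Of 6 epithelial markers with a usable probe set (KRT5, KRT14, KRT8, KRT18, CDH1 and EPCAM), all had mean log2 values of at least 11.1. Of these 6 markers 3 were called higher (KRT5, KRT14 and EPCAM) and 1 lower (KRT18) over 19775 genes. Of all these genes 7.79% were called higher and 10.2% lower.

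Of the 30 probe sets, 7 were called lower and 2 higher. Over all probe sets 7.19% were called lower and 4.3% higher. Since the genes were chosen on this contrast, nothing is read from the comparison. The calls fell on 5 of the 10 genes, and IGFBP5 alone gave 5 of the 7 lower ones. The arrays of the 2 groups did not overlap for 12 probe sets with ZNF750 below and 5 with ZNF750 above, where 24.3% and 29.9% of all probe sets behaved in these ways. The median difference was -0.046 over the 30 probe sets, 0.025 over the 24 that do not read IGFBP5 and 0.026 over all probe sets. For 20 of the 30 the difference was under 0.25 log2 units in size, as it was for 40795 of all 54613 probe sets.

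**Figure D1:**
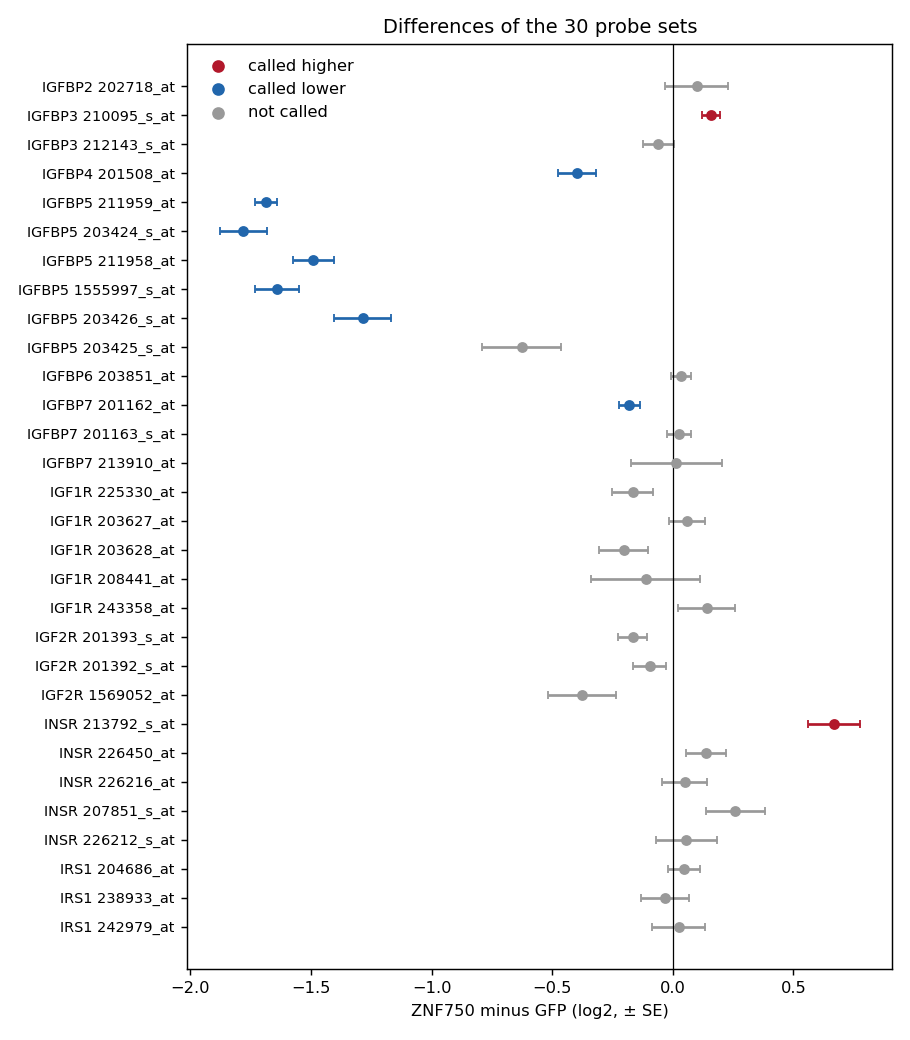
Difference of each of the 30 probe sets (x axis, ZNF750 minus GFP in log2 units, point with SE, n = 2 arrays per group), grouped by gene down the page and coloured by the whole-table call. The 6 IGFBP5 probe sets lie between -1.78 and -0.63, apart from the other 24, which lie between -0.40 and 0.67.

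IGFBP5, a secreted binding protein that also attaches to extracellular matrix, was lower in the ZNF750-labelled arrays on each of its 6 probe sets. Probe set 211959_at, its brightest, read 10.11 and 10.17 in the ZNF750-labelled arrays, against 11.81 and 11.84 in the GFP arrays. Probe set 203424_s_at read 7.63 and 7.58 with ZNF750, against 9.24 and 9.53 with GFP. The arrays of a group lay close together, and the groups were separated by more than 1.6 log2 units on both probe sets. Probe set 1555997_s_at read 6.51 and 6.35 with ZNF750, against 8.02 and 8.11 with GFP. Probe set 211958_at read 6.90 and 6.73 with ZNF750, against 8.33 and 8.28 with GFP. These again did not overlap, with gaps of 1.52 and 1.39 between the highest ZNF750 array and the lowest GFP array. Probe set 203426_s_at read 5.94 and 5.70 with ZNF750, against 7.01 and 7.20 with GFP. The dimmest, 203425_s_at, read 5.13 and 5.59 with ZNF750, against 6.07 and 5.90 with GFP, and here the gap was 0.31.

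**Figure D2:**
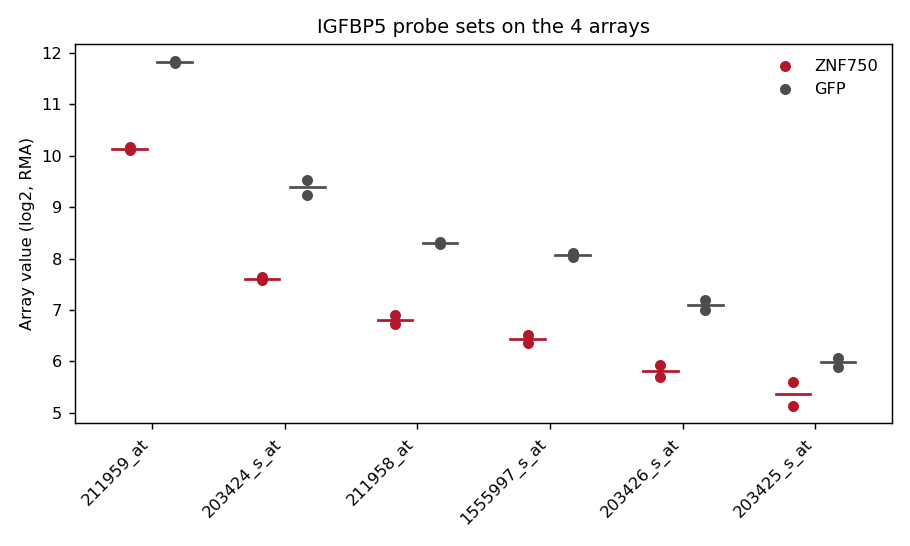
Array values of the 6 IGFBP5 probe sets (y axis, log2 RMA signal), with ZNF750 arrays in red left of GFP arrays in grey, 1 point per array and a bar at the mean of 2. In every probe set both ZNF750 points lie below both GFP points, with the smallest gap in 203425_s_at.

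In fold terms IGFBP5 was 3.22-fold lower on 211959_at (-1.69 ± 0.045), 3.43-fold on 203424_s_at (-1.78 ± 0.099), 3.12-fold on 1555997_s_at and 2.81-fold on 211958_at. The remaining probe sets were 2.44-fold lower on 203426_s_at (-1.29 ± 0.12) and 1.54-fold lower on 203425_s_at (-0.63 ± 0.16). All but 203425_s_at were called lower and were lower by more than 1 log2 unit, as were 0.168% of all probe sets. The smallest difference belonged to the dimmest probe set, and the widest to 203424_s_at, which was not the brightest. The difference on 203424_s_at ranked 2 among all probe sets counted from the lowest. With 1 array left out at a time the difference ran from -1.71 to -1.66 on 211959_at and from -1.93 to -1.17 on the 4 other called probe sets. Such a fit has 1 array on one side and takes its spread from the pair on the other. Without a GFP array few calls were made: 10 higher and 1 lower of all 54613 probe sets without replicate 1, and 8 and 1 without replicate 2, the lower one being 211959_at both times. The 4 others lost their call in these fits. In RNA from a whole culture, fewer cells with IGFBP5 RNA and less of it per cell cannot be told apart.

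The non-member genes whose pattern over the 4 arrays lay nearest to that of IGFBP5, by the distance between array values centred on each gene's mean, were RHOB, COL5A1, COL4A2, FRMD5 and CST6. Their distances ran from 0.24 to 0.40 log2 units and their differences from -1.48 to -1.29. Likeness over 4 arrays in 2 groups mostly reflects the size of the difference. Fibroblasts also make IGFBP5, and of 6 fibroblast markers (COL1A1, COL1A2, COL3A1, DCN, LUM and PDGFRB) 0 were called by limma. At an unadjusted p under 0.05, 1 was higher and 0 were lower. Their summed log2 level was 30.8 to 31.1 in the ZNF750-labelled arrays and 29.7 to 30.1 in the GFP arrays. Their mean log2 values ran from 2.70 for LUM to 8.36 for COL1A1, with 3 of the 6 under 5. Of 4 endothelial and 3 leukocyte markers 0 were called by limma, and 0 at an unadjusted p under 0.05. The ACTB 3′ to 5′ gap was wider by 0.64 on average with ZNF750, and its part in the IGFBP5 difference was not tested.

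IGFBP4, a binding protein that withholds IGFs from their receptor until proteases cut it, had 1 probe set. It read 8.01 and 8.08 in the ZNF750-labelled arrays, against 8.36 and 8.53 in the GFP arrays. The groups did not overlap, IGFBP4 was 1.32-fold lower (-0.40 ± 0.079) and it was called lower. The call was lost whichever array was left out, with differences between -0.48 and -0.32, and without the intensity trend in limma's variance prior.

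IGFBP3 and IGFBP7 gave different answers on different probe sets. IGFBP3 carries most IGF in blood. Its brightest probe set, 210095_s_at, read 11.91 and 11.89 with ZNF750, against 11.72 and 11.76 with GFP, a difference of 0.16 ± 0.039 that was called higher. Its other probe set, 212143_s_at, read 8.98 and 8.90 with ZNF750, against 9.03 and 8.97 with GFP. These overlapped, at -0.059 ± 0.063, a sign that turned to 0.0073 when arrays were centred on brighter probe sets. IGFBP7, a relative that binds IGFs weakly, read 10.75 on both ZNF750-labelled arrays with 201162_at, against 10.91 and 10.95 on the GFP arrays. That probe set was called lower (-0.18 ± 0.044). Probe set 201163_s_at read 10.35 and 10.43 with ZNF750, against 10.37 and 10.36 with GFP, and overlapped at 0.027 ± 0.050. The dim 213910_at read 3.78 and 4.24 with ZNF750, against 4.17 and 3.82 with GFP, and overlapped as well. The calls of 210095_s_at and 201162_at were both lost whichever array was left out, with differences of 0.14 to 0.18 and of -0.20 to -0.16, and without the intensity trend. In addition, 201162_at was not called after cyclic loess (-0.11) or with arrays centred on brighter probe sets (-0.11). With the replicate block 210095_s_at was not called. The mean of each gene's probe sets gave 0.050 for IGFBP3 and -0.047 for IGFBP7, neither called.

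IGFBP6, which prefers IGF2 to IGF1, differed little between the groups. Its probe set 203851_at read 11.39 and 11.34 with ZNF750, against 11.33 and 11.34 with GFP, and the arrays overlapped at 0.033 ± 0.042. IGFBP2 read 3.90 and 3.64 with ZNF750, against 3.65 and 3.70 with GFP. This is dim (mean log2 3.72), and whether IGFBP2 lay above background is not known since no detection calls were used. The IGFBP2 arrays overlapped at 0.099 ± 0.13, beside the much wider difference of its neighbour IGFBP5.

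**Figure D3:**
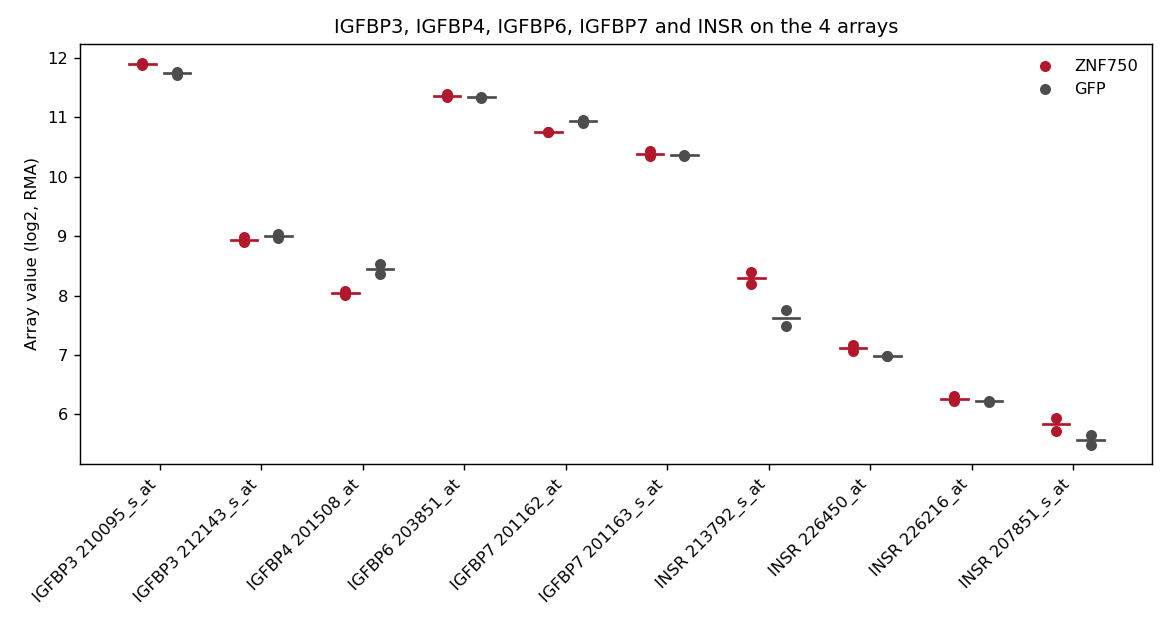
Array values (y axis, log2 RMA signal) of the probe sets of IGFBP3, IGFBP4, IGFBP6, IGFBP7 and INSR with a mean log2 of at least 5, ZNF750 arrays in red left of GFP arrays in grey, 1 point per array and a bar at the mean of 2. ZNF750 points lie below GFP points for IGFBP4 and above them for INSR 213792_s_at, and the IGFBP6 points overlap.

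Among the receptors, INSR pointed higher on each of its 5 probe sets, by very different amounts. Probe set 213792_s_at read 8.20 and 8.39 in the ZNF750-labelled arrays, against 7.76 and 7.50 in the GFP arrays. It was 1.59-fold higher (0.67 ± 0.11), without overlap, and was the only INSR probe set called. Probe set 226450_at read 7.16 and 7.07 with ZNF750, against 6.98 on both GFP arrays, and was 0.14 ± 0.083 higher. Probe set 207851_s_at read 5.93 and 5.73 with ZNF750, against 5.66 and 5.49 with GFP, and was 0.26 ± 0.12 higher. Both kept the groups apart but were not called. Probe sets 226216_at (0.050 ± 0.094) and 226212_s_at (0.056 ± 0.13) overlapped, and the sign of the last turned after cyclic loess (-0.011). A suffix of _s_at marks probes that can read more than 1 transcript. The call of 213792_s_at was lost whichever array was left out, with differences between 0.53 and 0.80, and without the intensity trend. The mean of the 5 probe sets was 0.23 and was not called.

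IGF1R, the main signalling receptor for IGFs, had 5 probe sets, all uncalled. Its brightest, 225330_at, read 8.58 and 8.38 with ZNF750, against 8.70 and 8.59 with GFP (-0.17 ± 0.085). The next, 203627_at, read 8.20 and 8.23 with ZNF750, against 8.22 and 8.09 with GFP (0.060 ± 0.074). The first of these kept the groups apart by a narrow margin and the other overlapped. Probe set 203628_at read 6.38 and 6.56 with ZNF750, against 6.62 and 6.72 with GFP (-0.20 ± 0.10), also apart. The dimmer 208441_at (-0.11 ± 0.23) and 243358_at (0.14 ± 0.12) had opposite signs. IGF1R thus had probe sets on both sides of 0, between -0.20 and 0.14.

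IGF2R, the receptor that removes IGF2, pointed lower on each of its 3 probe sets, all uncalled. Probe set 201393_s_at read 9.28 and 9.18 with ZNF750, against 9.40 on both GFP arrays, without overlap (-0.17 ± 0.060). Probe set 201392_s_at read 8.76 and 8.85 with ZNF750, against 8.84 and 8.96 with GFP, and overlapped (-0.096 ± 0.070). Probe set 1569052_at read 5.08 and 4.98 with ZNF750, against 5.58 and 5.24 with GFP, without overlap (-0.38 ± 0.14).

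IRS1, the adaptor, overlapped on each of its 3 probe sets. Probe set 204686_at read 8.78 and 8.67 with ZNF750, against 8.69 and 8.66 with GFP (0.046 ± 0.066). Probe sets 238933_at (-0.033 ± 0.10) and 242979_at (0.024 ± 0.11) were as close to 0, and these 3 values lay within their own SE.

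Genes around these members were tested from 3 lists grouped by function, drawn up with earlier results of these data known, with 1 probe set per gene (the brightest) and limma's p adjusted over 19775 genes. Of these genes 7.79% were called higher and 10.2% lower, and the median difference was 0.036. The first list held other genes of the IGF system: the ligands, relatives of the binding proteins, and the proteases and protease inhibitors that act on them. It also held INSRR, a receptor related to INSR, and the RNA-binding proteins IGF2BP1, IGF2BP2 and IGF2BP3. Of its 25 genes, 24 had a usable probe set and IGF2 did not. Of these 24, 2 rose and 4 fell, which left 18 that did not pass, and the median difference was 0.032. The ligand IGF1 (0.15 ± 0.11), insulin (INS, 0.060 ± 0.14), the binding protein IGFBP1 (0.020 ± 0.11) and IGFALS (0.0049 ± 0.13), which joins IGF complexes in blood, did not pass, and IGF1 and IGFBP1 kept that result under each probe set. The signs for INS, IGFBP1 and IGFALS turned after cyclic loess. INS and IGFBP1 were dim, with mean log2 values of 4.65 and 2.86, and whether they lay above background is not known. The mean log2 was 5.79 for IGF1 on its brightest probe set and 5.52 for IGFALS.

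CCN3, a matricellular protein with an IGFBP-type domain, read 8.18 and 8.13 with ZNF750, against 7.35 and 7.08 with GFP. It rose 1.92-fold (0.94 ± 0.099, adjusted p = 0.00122), although its other probe set gave 0.18. Its relatives CCN2 (-0.46 ± 0.086, adjusted p = 0.00957) and CCN1 (-0.34 ± 0.043, adjusted p = 0.00241) fell. CRIM1, a membrane protein with an IGFBP-type domain, read 8.59 and 8.54 with ZNF750, against 9.02 and 8.95 with GFP. It fell by 0.41 on the log2 scale (adjusted p = 0.00411), and its 3 probe sets were all called lower, down to -0.98. Without either ZNF750 array the brightest probe set was 228496_s_at, so that CRIM1 stood at -0.82 and -0.85. IGF2BP3, an RNA-binding protein named for IGF2 mRNA, fell by 0.60 (SE 0.069, adjusted p = 0.00177) on 203820_s_at. Its 2 brighter probe sets were both called lower (-0.60 and -0.61). The other 2 were dim, with mean log2 values of 3.34 and 3.62, and gave 0.18 and 0.0042. The mean of all 4, -0.26, did not pass (adjusted p = 0.0836).

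PAPPA is the metalloprotease that cuts IGFBP4 and IGFBP5, and STC1 and STC2 are secreted proteins that inhibit it. STC2 read 7.95 and 7.79 with ZNF750, against 7.49 and 7.40 with GFP, and rose 1.35-fold (0.43 ± 0.085, adjusted p = 0.0126). Its other probe set gave 0.34 and was not called in the fit over all probe sets (adjusted p = 0.0771). The mean of both STC2 probe sets, 0.39, passed (adjusted p = 0.0078). STC1 (0.20 ± 0.10, adjusted p = 0.238) did not pass. PAPPA had 11 probe sets, and the brightest, 1559400_s_at, did not pass (0.30 ± 0.10, adjusted p = 0.0908). Without ZNF750 replicate 2 the brightest was 201982_s_at, which gave 0.036. Among the probe sets lacking the suffixes _s_at and _x_at the brightest was 201981_at, higher by 0.22 and uncalled (limma's adjusted p = 0.239). In the fit over all probe sets 2 of the 11 were called higher. These are singled out after their values were seen. Of them, 224940_s_at read 5.73 and 5.59 with ZNF750, against 4.30 and 4.27 with GFP (1.37 ± 0.12, adjusted p = 0.00108). The other, 228128_x_at, read 5.80 and 5.51 with ZNF750, against 4.45 on both GFP arrays (1.21 ± 0.13, adjusted p = 0.00251). Their mean log2 values were 4.97 and 5.05, close to the limit of 5 under which probe sets were counted as dim. Whether they lay above background in the GFP arrays is not known. The remaining PAPPA probe sets ran from -0.22 to 0.63. The mean of all 11 gave 0.38 and passed (adjusted p = 0.0391). Both were called without either ZNF750 array and not without either GFP array, where 224940_s_at stood at 1.38 (adjusted p = 0.109) and 1.36 (adjusted p = 0.0916).

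The second list held the relay of insulin and IGF signals inside the cell. Of its 36 genes 31 had a usable probe set, of which 2 rose and 3 fell, which left 26 that did not pass, and the median difference was -0.037. GRB10, an adaptor that dampens signalling from both receptors, read 7.55 and 7.45 with ZNF750, against 6.76 and 6.69 with GFP, and rose 1.71-fold (0.78 ± 0.084, adjusted p = 0.00139). A second GRB10 probe set gave 0.75, and 2 others gave 0.11 and 0.050. RICTOR, a subunit of the mTORC2 kinase complex, rose 1.28-fold (0.35 ± 0.052, adjusted p = 0.0043), with 3 of its 4 probe sets called higher. PIK3R3, a regulatory subunit of phosphoinositide 3-kinase, fell by 0.56 (SE 0.087, adjusted p = 0.00508), its other probe set gave 0.092 and the mean of both, -0.23, did not pass (adjusted p = 0.0995). PTPRF, a phosphatase that can act on the insulin receptor, fell by 0.37 (SE 0.060, adjusted p = 0.00598). In the fit over all probe sets 3 of its 4 were called lower, at -0.37, -0.46 and -0.43. The one without the _s_at suffix was not (-0.13, adjusted p = 0.702). MTOR, the kinase of both mTOR complexes, fell by 0.41 (SE 0.090, adjusted p = 0.0185), its other probe set gave 0.11 and the mean of both, -0.15, did not pass (adjusted p = 0.244). IRS2, the relative of IRS1, did not pass (-0.15 ± 0.047, adjusted p = 0.0727), and its other probe set gave 0.089.

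**Figure D4:**
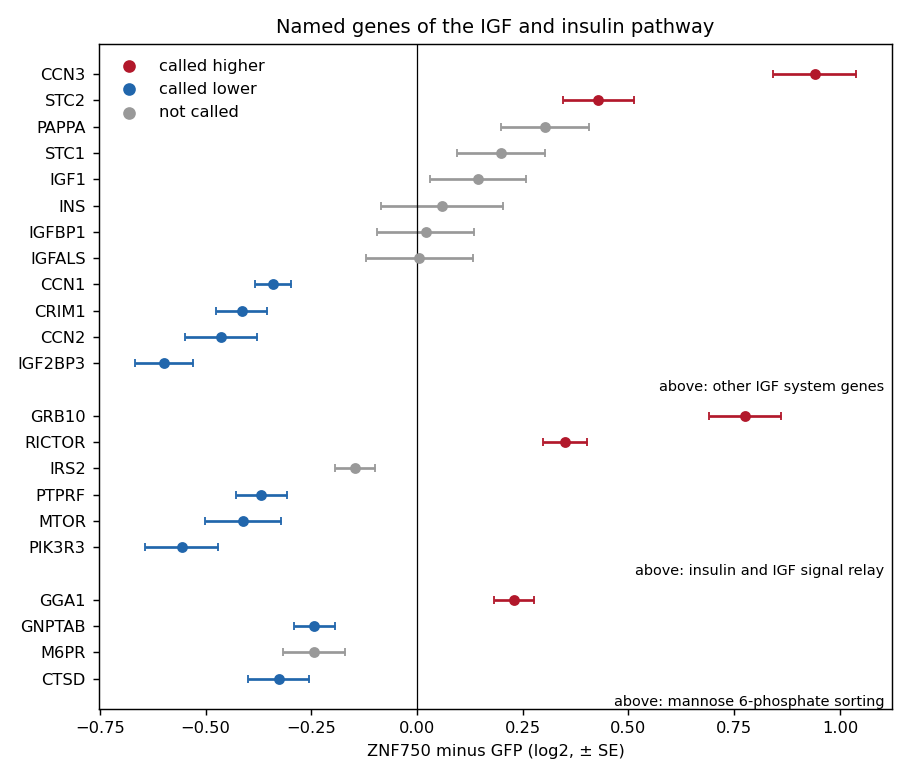
Difference of the named genes of the 3 lists (x axis, ZNF750 minus GFP in log2 units, point with SE, n = 2 arrays per group, brightest probe set per gene), coloured by the call over 19775 genes. CCN3 and GRB10 lie farthest to the right, at 0.94 and 0.78, and IGF2BP3 and PIK3R3 farthest to the left, at -0.60 and -0.56.

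The third list held the mannose 6-phosphate route that IGF2R serves. Of its 10 genes 1 rose and 2 fell, which left 7 that did not pass, and the median difference was -0.032. CTSD, a lysosomal protease carried by this route, fell by 0.33 (SE 0.072, adjusted p = 0.0196), and GNPTAB, a subunit of the enzyme that makes the tag, fell by 0.24 (SE 0.048, adjusted p = 0.0127). GGA1, an adaptor protein of this route, rose 1.17-fold (0.23 ± 0.046, adjusted p = 0.0138), and 50277_at, nearly as bright, gave 0.22. Of its 5 probe sets the dimmest (mean log2 4.18) was called lower (-0.86), and 217560_at and 218114_at gave -0.029 and 0.023. The mean of all 5, -0.085, did not pass (adjusted p = 0.377). Of the 3 GNPTAB probe sets 2 were called lower in the fit over all probe sets (-0.24 and -0.37), and the other gave 0.089. The mean of the GNPTAB probe sets, -0.17, did not pass either (adjusted p = 0.122). M6PR, the smaller receptor of the route, did not pass (-0.24 ± 0.073, adjusted p = 0.0589). It passed as lower with dim probe sets left out (limma's adjusted p = 0.0429) and with the replicate block (limma's adjusted p = 0.037).

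The list counts changed when 1 array was left out, as did those over all probe sets, which became 267 higher and 661 lower when ZNF750 replicate 1 was dropped, 236 and 416 when ZNF750 replicate 2 was, and at most 10 and 1 when either GFP array was. Without GFP replicate 1, 1 gene of the first list passed as higher and 0 as lower. Without GFP replicate 2, 0 genes passed in the first list, and without either of them 0 passed in the other lists by limma. Without ZNF750 replicate 1 the first list had 1 higher and 4 lower, the second 2 and 4, and the third 0 and 0. Without ZNF750 replicate 2 these were 2 and 4, 3 and 1, and 0 and 0. Without the intensity trend in the variance prior STC2, CCN1, RICTOR, MTOR, PTPRF, GGA1, CTSD and GNPTAB did not pass, with adjusted p from 0.0525 for STC2 to 0.0979 for GGA1.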

How the data were processed

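Total RNA of 4 CaSki samples (2 ZNF750, 2 GFP; groups and replicate numbers from the titles) was read on single-colour arrays. The log2 values in the 1 table deposited by the authors were made with RMA (background correction, quantile normalization and summary per probe set), per the submitters' processing notes. The RMA version is not given in these sources. Depth does not apply to arrays, and the number of arrays limits the precision. No scanner files, detection calls or probe positions were used here.

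The platform annotation gave 41091 probe sets 1 symbol, 1801 several and 11721 none. The 30 probe sets matched RefSeq by Entrez identifier with 0 symbols changed, and 62 controls were left out. The differences come from limma 3.58.1, run in R 4.3.3 (lmFit, eBayes with an intensity trend, 2 residual degrees of freedom, Benjamini-Hochberg adjustment), after a test on simulated data. The p-values measure the spread between these arrays, which may be technical.

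The genes, lists and naming rule were chosen with earlier results of these data known. Named were the 10 members, 10 pathway genes fixed by name (IGF2 had no usable probe set), and up to 4 genes per list and direction with the largest difference that passed. The alternatives covered the variance prior, scaling, dim probe sets (mean log2 under 5), the probe set rule, the replicate number, the threshold (0.01) and leaving out each array.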

Additional observations from a re-analysis of the deposited data

How the results depend on the processing

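Counts moved with the fit and with the unit counted. Of 54613 probe sets 2348 were called higher and 3927 lower, against 520 and 754 without the intensity trend, and 704 and 1474 at an adjusted p under 0.01. Without the suffixes _s_at and _x_at 39114 probe sets were left, with 1230 and 1845 called. Over 19775 genes the counts were 1043 and 1600 with probe sets averaged, and 1541 and 2013 with the brightest probe set. The last are 7.79% and 10.2% of genes, against 4.3% and 7.19% of probe sets. Centring on brighter probe sets gave 4712 higher and 3406 lower, so that lower calls made up 42.0% in place of 62.6%, and cyclic loess gave 54.2%. Leaving out 1 array gave 8 to 267 higher and 1 to 661 lower.

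The member calls were 2 higher and 7 lower over 30 probe sets. Over the 10 genes they were 0 and 2 with probe sets averaged, and 2 and 3 with the brightest probe set. Without the 12 member probe sets that carry the suffix _s_at they were 0 and 4. Both higher calls had that suffix and were left out there untested, as were the IGFBP5 calls on 203424_s_at, 1555997_s_at and 203426_s_at. On all 30 probe sets the calls became 0 and 5 without the intensity trend, and 1 and 5 at an adjusted p under 0.01. Leaving out 1 array gave 0 higher and 1 to 5 lower. No called member difference changed sign under these alternatives.

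For the lists of other IGF genes, of signal relay and of mannose 6-phosphate sorting (2 and 4, 2 and 3, and 1 and 2 genes higher and lower), the counts were 1 and 3, 1 and 1, and 0 and 0 without the intensity trend, 3 and 5, 6 and 3, and 4 and 2 after cyclic loess, and 5 and 5, 5 and 3, and 4 and 2 with centring on brighter probe sets. They were 2 and 2, 2 and 2, and 1 and 2 without the suffixes, 3 and 3, 3 and 2, and 1 and 1 with probe sets averaged, and 1 and 4, 2 and 2, and 0 and 0 at an adjusted p under 0.01. Leaving out 1 array gave 0 to 2 and 0 to 4, 0 to 3 and 0 to 4, and 0 and 0. Signs turned after cyclic loess for INS (-0.0059), IGFBP1 (-0.049) and IGFALS (-0.033), for IGF2BP3 without the suffixes (0.18) and for GGA1 with probe sets averaged (-0.085). With 1 array left out INS ran from -0.11 to 0.23, IGFBP1 from -0.046 to 0.087 and IGFALS from -0.14 to 0.15. The cause was not tested.

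The titles share replicate numbers, and deviations of same-numbered arrays correlated at 0.13 over probe sets, which with 2 pairs does not settle a pairing. With the replicate block the counts were 2002 higher and 3792 lower over all probe sets, 1 and 7 among the members and 2 and 5, 4 and 3, and 1 and 3 in the lists.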
